A study of Mus musculus with 4 samples.

Results

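Interferon-induced genes were read on 4 Affymetrix arrays of mouse B cells. The members were 39 genes listed by symbol for their induction by interferon, and 37 of them had at least 1 probe set annotated to that symbol alone, 55 probe sets in all, among 18194 genes on the platform. Isg15 shared its probe set with a second symbol and Ifi44 had none listed, so these 2 genes were not analysed here. The members were chosen with earlier results of these data known. The arrays held germinal centre (GC) B cells of Peyer's patches (PP), GC B cells of peripheral lymph nodes (pLN), naive B cells of PP and naive B cells of pLN, 1 array each, all from adult C57BL6/J wild type mice kept specific pathogen-free. The PP mice were untreated, whereas the pLN mice, whose GC and naive cells were both used, had been immunised with TNP-KLH, a hapten on a carrier protein, in incomplete Freund's adjuvant. GC cells were sorted as B220+PNA+Fas+ and naive cells as B220+PNA-Fas-, and RNA of 3 to 5 mice was pooled for each array. The pools hide the spread between mice, and the errors below come from how far the 2 tissues disagree, pooled largely over all genes, so that they say little of any 1 gene's own spread.

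Interferons are secreted on infection and signal through surface receptors and JAK kinases to STAT and IRF transcription factors. Type I interferons act through a complex that holds STAT2 and IRF9 and binds the interferon-stimulated response element in promoters. The induced genes encode sensors of viral nucleic acids, enzymes that cut, edit or sense double-stranded RNA, proteins that block translation or budding of viruses, and GTPases that attack the membranes around intracellular pathogens. Many of them are also transcribed at a lower level without infection.

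The signals are intensities scaled to equal trimmed means, and a signal counted as above background when it exceeded the array's detection level, the 90th percentile of probe sets of genes from other tissues. That level was 215 on GC PP, 146 on GC pLN, 145 on naive PP and 88.3 on naive pLN. The B cell marker genes found (7, among them Cd79a and Ms4a1) were above it on all 4 arrays. The 7 GC marker genes were all above it on both GC arrays, against 3 on naive PP and 4 on naive pLN, and 6 of the 7 were called higher in GC cells. Of the 6 naive marker genes, 5 were above it on GC PP, 6 on GC pLN and 6 on each naive array, and all 6 were called lower in GC cells. The 3'/5' ratios of the Gapdh and Actb control probe sets, a sign of RNA quality, lay between 1.48 and 1.82 on the GC arrays and between 12.2 and 96.4 on the naive arrays, highest on naive PP. The geometric mean signal of 18 bacterial and phage spike-in probe sets was 4925 on GC PP and 4855 on GC pLN, against 17090 on naive PP and 8569 on naive pLN. Both differences run with cell type, and their part in the GC-naive values was not tested.

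The members were listed for their induction by interferon. That choice largely sets how many of their promoters hold the response element. Its letters were searched as GAAA, any 2 bases and GAAA, and on the other strand as TTTC, any 2 bases and TTTC, in RefSeq windows (GRCm38.p6) of 250 bases before to 50 bases after each gene start, in which overlapping matches were counted separately. At least 1 match lay in a window of 16 of the 30 listed members present in that table (Isg15 and Ifi44 among them), or 53.3%, against 3.99% of all 27025 genes and 3.44% of all 32851 windows. It occurred in 5 of 12 members called lower in GC cells, in 2 of 3 called higher and in 4 of 9 tested members that were not called. Of the members on the array that were not tested, 4 of 4 with a window held it. A match describes letters and is no evidence of binding. The 180 bases before the start are shown for the 6 members with a called GC-naive difference that hold a match there, with the 8 fixed letters of each match in capitals, so that genes lower (Ifit3, Igtp, Irgm1, Bst2) and higher (Trim30a, Gbp3) in GC cells can be set side by side. Ifit3 lies at chr19:34583349-34583528 on the + strand, Igtp at chr11:58199376-58199555 on the + strand, Irgm1 at chr11:48871421-48871600 on the - strand, Bst2 at chr8:71537473-71537652 on the - strand, Trim30a at chr7:104465194-104465373 on the - strand and Gbp3 at chr3:142559864-142560043 on the + strand.
Ifit3: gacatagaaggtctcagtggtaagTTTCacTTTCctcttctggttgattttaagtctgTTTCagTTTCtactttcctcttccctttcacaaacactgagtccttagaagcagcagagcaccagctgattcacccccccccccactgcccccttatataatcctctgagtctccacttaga
Igtp: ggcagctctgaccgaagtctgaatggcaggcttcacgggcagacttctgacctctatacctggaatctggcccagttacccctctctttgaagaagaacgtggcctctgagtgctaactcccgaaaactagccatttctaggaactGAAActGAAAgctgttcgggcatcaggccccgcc
Irgm1: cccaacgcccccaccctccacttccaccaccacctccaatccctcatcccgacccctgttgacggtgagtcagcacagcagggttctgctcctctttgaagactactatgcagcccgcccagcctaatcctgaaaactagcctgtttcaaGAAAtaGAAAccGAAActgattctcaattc
Bst2: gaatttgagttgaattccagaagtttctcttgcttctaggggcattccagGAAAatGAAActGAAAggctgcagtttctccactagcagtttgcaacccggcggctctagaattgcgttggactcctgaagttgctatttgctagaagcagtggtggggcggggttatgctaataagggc
Trim30a: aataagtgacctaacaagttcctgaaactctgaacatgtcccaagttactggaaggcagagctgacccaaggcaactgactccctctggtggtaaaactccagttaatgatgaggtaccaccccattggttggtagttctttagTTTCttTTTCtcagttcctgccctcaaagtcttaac
Gbp3: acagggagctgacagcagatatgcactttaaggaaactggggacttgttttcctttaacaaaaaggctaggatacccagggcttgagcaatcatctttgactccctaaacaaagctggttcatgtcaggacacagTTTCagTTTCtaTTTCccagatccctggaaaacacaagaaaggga
Counted back from the start, the matches began at base -156 and -122 in Ifit3, -34 in Igtp, -30 and -24 in Irgm1, -130 and -124 in Bst2, -36 in Trim30a and -45 and -39 in Gbp3. Those of Irgm1, Bst2 and Gbp3 overlap as a run of 3 repeats 6 bases apart, while the matches of Ifit3 are separate. The match in Ifih1 lay after the start and is not shown.

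Most members were expressed above background in at least 1 population. On the naive pLN array 36 of 37 stood above the level, on GC pLN 31, on naive PP 30 and on GC PP 23, while between 45.9% and 51.5% of all genes did so on each array. By array, 22 members were above on all 4, 6 on 3, 6 on 2 and 2 on 1 only, namely Mx2 and Rsad2 on naive pLN. Ifit1, a sensor of foreign RNA caps, was not above the level on any array, with signals of 21.0 and 50.7 in GC cells of PP and pLN and 5.32 and 83.7 in naive cells. The levels themselves differ between arrays, and the level of naive pLN was the lowest.

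**Figure D1:**
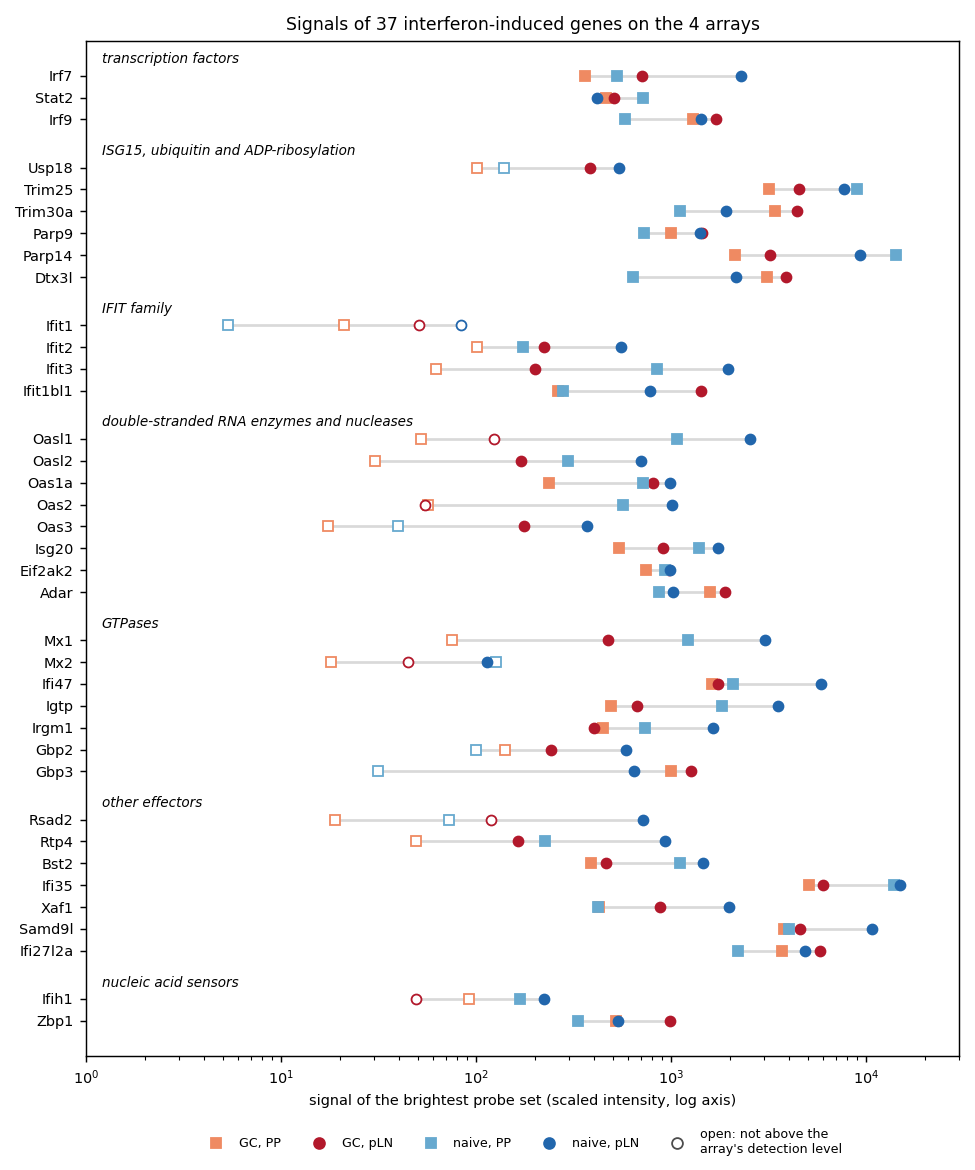
Signal (scaled intensity, log axis) of the brightest probe set of each of the 37 members on the 4 arrays, grouped by role; 1 point is 1 array, squares are PP and circles pLN, and open symbols are not above the detection level of their array. All 4 points of Ifit1 are open, and naive pLN (dark blue) is the brightest array for genes such as Oasl1, Mx1 and Ifit3.

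GC and naive cells were compared over the 2 tissues, which asks which of these genes differ with the GC state. Of 31 members tested, 16 were called lower and 3 higher in GC cells and 12 were not called (limma with tissue as a term, Benjamini-Hochberg adjusted p under 0.05 over 9121 genes). Among all genes tested 26.5% were called lower and 25.3% higher. The members' median log2 fold was -1.05, against -0.13 for all genes tested. Each array was also left out in turn, in fits without the tissue term, so that 1 array of a cell type, assumed to vary like the rest, stood against 2 of the other and cell type was partly mixed with tissue. The members' median log2 fold was -1.26 without GC pLN, -0.54 without naive pLN, -0.49 without GC PP and -1.47 without naive PP. In the same order, the medians of all genes tested were -0.091, -0.10, -0.066 and -0.23. The members tested in these fits numbered 31, 31, 34 and 36. With all 4 arrays but no tissue term, 12 members were called lower and 1 higher, against 2193 and 1944 of 9121 genes. Of the 22 members above the level on all 4 arrays, 9 were called lower and 2 higher when only such genes were tested, against 26.5% and 21.5% of the 7222 genes. The 6 members not tested were not above the level on both arrays of either cell type. Of the members called lower, Oasl1, Oas2, Ifih1, Ifit3, Oasl2, Mx1 and Rtp4 passed this filter through the naive arrays only. Gbp3, called higher, passed it through the GC arrays only. The direction of their differences is partly set by the filter. Both naive arrays carried the high 3'/5' ratios and spike-in signals given above. Scaling to the spike-ins moved the median of all genes to 1.15 and that of the members to 0.20. Of the 31 members tested on that scale, 2 were called lower (Oasl1 and Oas2) and 4 higher, against 164 and 2788 of 9120 genes. Among all called genes 5.56% were lower, against 51.2% on the main scale. The members' median stayed below that of all genes by 0.95 on that scale and by 0.92 on the main one. That scaling multiplies each array by 1 factor and moves all genes nearly alike, so this gap could hardly change. Among genes above the level on all 4 arrays, the members' median minus that of all genes was -0.46. With 1 array left out it lay between -1.23 (without naive PP) and -0.43 (without GC PP).

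Among 8 double-stranded RNA enzymes, 4 were called lower, 3 were not called and 1 was not tested. Of all genes tested, 26.5% were called lower. Oasl1, an OAS-like protein that restrains Irf7 translation in mice, had signals of 51.9 and 123 in GC cells of PP and pLN, neither above the level, against 1072 and 2533 in naive cells. It was at least 9.32-fold lower in GC cells, a bound that sets the naive signals against the level of the GC arrays. The adjusted p of 3.57e-08 (limma) belongs to the log2 fold of -4.06, which uses the GC background signals. Oas2, which makes 2'-5' oligoadenylates that activate RNase L, read 56.6 and 54.4 in GC cells, again not above the level, against 563 and 1013 in naive cells, or at least 4.27-fold lower. Its adjusted p of 1.02e-06 (limma) likewise belongs to the log2 fold of -3.38 and not to the bound. Both genes were above the level on the naive arrays only and entered the test through them. That their naive signals lay above every GC signal is therefore partly set by the filter. With each array left out, the log2 fold lay between -4.67 and -3.45 for Oasl1 and between -3.80 and -2.97 for Oas2.

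Oasl2, an OAS-like protein with ubiquitin-like repeats, read 30.2 and 170 in GC cells of PP and pLN against 297 and 696 in naive cells. The log2 fold was -2.31 ± 0.46 (SE over the 2 tissues, adjusted p = 0.000156, limma), or -1.18 with the GC PP signal, which was not above background, set to the level. Isg20, a 3'-5' exonuclease, read 540 and 905 in GC cells against 1384 and 1737 in naive cells (-1.13 ± 0.40, adjusted p = 0.0198). The naive signals of both genes exceeded both GC signals. For Oasl2 this is partly set by the filter, which it passed through the naive arrays only. Oas1a (-0.90, adjusted p = 0.0855), the kinase gene Eif2ak2 (PKR, -0.16, adjusted p = 0.765, by its brightest probe set, while its other 2 were called higher) and the RNA editing enzyme gene Adar (0.87, adjusted p = 0.0628) were not called. Oas3 was above the level on the pLN arrays only and was not tested. The call of Oasl2 was lost without naive pLN or GC PP (adjusted p 0.107 and 0.203) and that of Isg20 without naive pLN, GC pLN or GC PP (0.0577 to 0.419), while Adar was called higher without naive pLN or naive PP (0.014 and 0.0422).

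Of the 4 genes of the IFIT family, whose products bind viral RNA and limit its translation, 1 was called lower, 2 were not called and Ifit1 was not tested. The share called lower among all genes tested was 26.5%. Ifit3 read 61.8 and 200 in GC cells of PP and pLN against 848 and 1955 in naive cells. It entered the test through the naive arrays only, so the order of its signals is partly set by the filter. Both naive signals exceeded both GC signals, and the log2 fold was -3.30 ± 0.44 (adjusted p = 8.62e-07, limma), or -2.53 with GC PP at the level, and the call held with each array left out. Ifit2 read 101 and 223 in GC cells against 173 and 554 in naive cells and was not called (-0.97, adjusted p = 0.0746). Ifit1bl1, a mouse paralogue of Ifit1, read 263 and 1415 in GC cells against 277 and 775 in naive cells, so that its GC signal was the higher in pLN only (0.39, adjusted p = 0.467). Leaving out naive PP made Ifit2 a call (adjusted p = 0.0257).

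Among 7 GTPases, 4 were called lower, 1 higher and 2 (Mx2 and Gbp2) were not tested. The shares among all genes tested were 26.5% lower and 25.3% higher. Mx1, an antiviral GTPase that is not functional in this strain, read 74.7 and 473 in GC cells of PP and pLN against 1220 and 3027 in naive cells (-3.18 ± 0.43, adjusted p = 1.21e-06, or -2.52 with GC PP at the level). Igtp, an immunity-related GTPase that acts on vacuoles of intracellular parasites, read 490 and 670 in GC cells against 1827 and 3542 in naive cells (-2.11 ± 0.39, adjusted p = 7.6e-05), and its call held with each array left out. In both genes every naive signal was above every GC signal. For Mx1 this is partly set by the filter, which it passed through the naive arrays only.

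The related Irgm1 read 446 and 403 in GC cells of PP and pLN against 730 and 1645 in naive cells (-1.33 ± 0.43, adjusted p = 0.0122). Ifi47 read 1623 and 1740 in GC cells against 2071 and 5876 in naive cells (-1.05 ± 0.40, adjusted p = 0.0314), so that the difference was mainly in pLN. Gbp3, a guanylate-binding protein, went the other way, with 997 and 1256 in GC cells against 31.2 and 647 in naive cells. Its log2 fold of 2.64 ± 0.54 (adjusted p = 0.000228) was 1.79 with the naive PP signal, not above background, at the level. Without naive PP the fold of Gbp3 was 0.77 and was not called (adjusted p = 0.0595). Without naive pLN Mx1 was not called (adjusted p = 0.0518), and Irgm1 and Ifi47 were not called without naive pLN, GC pLN or GC PP (0.0614 to 0.18 for Irgm1 and 0.216 to 0.274 for Ifi47).

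Of the 3 transcription factors, only Irf7, the main amplifier of type I interferon production, was called. It read 361 and 710 in GC cells of PP and pLN against 527 and 2272 in naive cells (-1.09 ± 0.43, adjusted p = 0.0343, limma). The naive PP signal lay between the 2 GC signals, so the groups overlap, and the call was lost without GC pLN, naive pLN or GC PP (adjusted p from 0.096 to 0.925). Irf9, which brings the STAT complex to DNA, read 1290 and 1690 in GC cells against 577 and 1413 in naive cells (0.70 ± 0.40, adjusted p = 0.147) and, with each array left out in turn, was called higher only without naive pLN (adjusted p = 0.00753). Stat2 read 463 and 508 in GC cells against 714 and 415 in naive cells and was not called (adjusted p = 0.776) by its brightest probe set, while its other was called higher.

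The genes around ubiquitin-like modification and ADP-ribosylation were split. Parp14, an ADP-ribosyltransferase, read 2113 and 3208 in GC cells of PP and pLN against 14248 and 9228 in naive cells (-2.13 ± 0.43, adjusted p = 0.000209). Trim25, a ubiquitin ligase that activates the RNA sensor RIG-I, read 3178 and 4508 in GC cells against 8909 and 7656 in naive cells (-1.12 ± 0.42, adjusted p = 0.0286). Both naive signals of these genes were above both GC signals.

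Dtx3l, a ubiquitin ligase that pairs with Parp9, read 3106 and 3872 in GC cells of PP and pLN against 635 and 2154 in naive cells (1.55 ± 0.40, adjusted p = 0.00229). Trim30a, a restrainer of Toll-like receptor signalling, read 3394 and 4430 in GC cells against 1113 and 1899 in naive cells (1.40 ± 0.38, adjusted p = 0.00342), so that every GC signal of these 2 genes was above every naive signal. Parp9 itself was not called (0.24, adjusted p = 0.627). Usp18, which removes ISG15 and dampens the type I receptor, was above the level on the pLN arrays only (382 in GC cells against 542 in naive cells) and was not tested. Without GC PP the calls of Parp14, Trim25 and Trim30a were lost (adjusted p 0.0662, 0.409 and 0.0621), and without GC pLN those of Trim25, Trim30a and Dtx3l (0.158, 0.161 and 0.106).

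Other effectors and sensors were lower or not called. Rtp4, a chaperone and antiviral factor, read 49.1 and 163 in GC cells of PP and pLN against 226 and 928 in naive cells (-2.12 ± 0.45, adjusted p = 0.000363, or -1.23 with GC PP at the level). Bst2 (tetherin), which holds budding virus at the membrane, read 389 and 463 in GC cells against 1114 and 1450 in naive cells (-1.54 ± 0.41, adjusted p = 0.00303). Both naive signals of these 2 genes exceeded both GC signals. For Rtp4 this is partly set by the filter, which it passed through the naive arrays only. Ifi35 read 5098 and 5961 in GC cells against 13896 and 14855 in naive cells (-1.38 ± 0.46, adjusted p = 0.0143) by a probe set far brighter than its others.

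Ifih1, which encodes the RNA sensor MDA5, was not above the level on either GC array (91.7 and 49.2, against 168 and 222 in naive cells). Its call (adjusted p = 0.0207, limma) therefore rests on background signals, and the bound was only at least 1.09-fold lower in GC cells. The sensor gene Zbp1 (0.74), Ifi27l2a (0.50), Xaf1 (-0.58) and Samd9l (-0.66) were not called, with adjusted p from 0.148 to 0.296. Rsad2, which encodes viperin, was above the level on naive pLN only. Without GC PP the calls of Rtp4, Bst2, Ifi35 and Ifih1 were lost (adjusted p 0.177, 0.127, 0.266 and 0.106). The same held without naive pLN for Rtp4 and Ifih1 (0.165 and 0.0896) and without GC pLN for Bst2, Ifi35 and Ifih1 (0.0669, 0.178 and 0.39). Without naive PP, Samd9l and Xaf1 were called lower (0.00121 and 0.0204), and without naive pLN Ifi27l2a was called higher (0.0178).

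The members not called or not tested completed the picture array by array, in the order PP then pLN within each cell type. Oas1a read 237 and 806 in GC cells against 719 and 980 in naive cells, Adar 1574 and 1883 against 863 and 1015, and Parp9 1002 and 1435 against 724 and 1411. Zbp1 read 520 and 982 in GC cells against 331 and 533 in naive cells, and Ifi27l2a read 3692 and 5780 against 2195 and 4820. In Adar, every GC signal was above every naive signal, while the groups overlapped in the other 4 genes. Samd9l read 3760 and 4544 in GC cells against 4004 and 10740 in naive cells, and Xaf1 read 423 and 875 against 422 and 1982, so that in both genes naive pLN stood above the other 3 arrays. Among the untested genes, Usp18 read 101 and 382 in GC cells against 139 and 542 in naive cells, Oas3 read 17.4 and 176 against 39.5 and 369, and Gbp2 read 140 and 242 against 99.6 and 589. These 3 genes were above the level on both pLN arrays and on neither PP array. Rsad2 read 18.9 and 119 in GC cells against 72.3 and 712 in naive cells, and Mx2 read 18.1 and 44.7 against 127 and 114, where the lower level of the pLN array alone put its naive signal above background.

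Other settings ended or added single calls. Without the tissue term Irf7, Ifi47, Gbp3, Dtx3l, Rtp4 and Irgm1 were not called (adjusted p 0.239, 0.127, 0.0889, 0.062, 0.0599 and 0.051, limma). With cyclic loess Ifi35 and Trim25 each had a log2 fold of -0.48 and were not called (adjusted p 0.255 and 0.277), nor was Ifi47 (0.0593), and by the mean of its probe sets Ifi35 had a log2 fold of -0.70 (0.0862). Without the filter on low signals Irf7, Ifi47, Ifih1 and Trim25 were not called (0.0542 to 0.0942), nor were Irf7 and Ifi47 with a background list lacking Gh and Prm1 (0.0506 and 0.0582). Ifit2 and Oas1a were called lower with the values as deposited (0.0387 and 0.0438), quantile normalization (0.014 and 0.00858), cyclic loess (0.0008 and 0.00273) and the mean of all probe sets (0.023 and 0.0423). Xaf1 was called lower with quantile normalization, cyclic loess and the mean of all probe sets (0.0187, 0.0381 and 0.00263), and Ifi27l2a higher with quantile normalization, cyclic loess and spike-in scaling (0.028, 0.0322 and 0.0147).

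**Figure D2:**
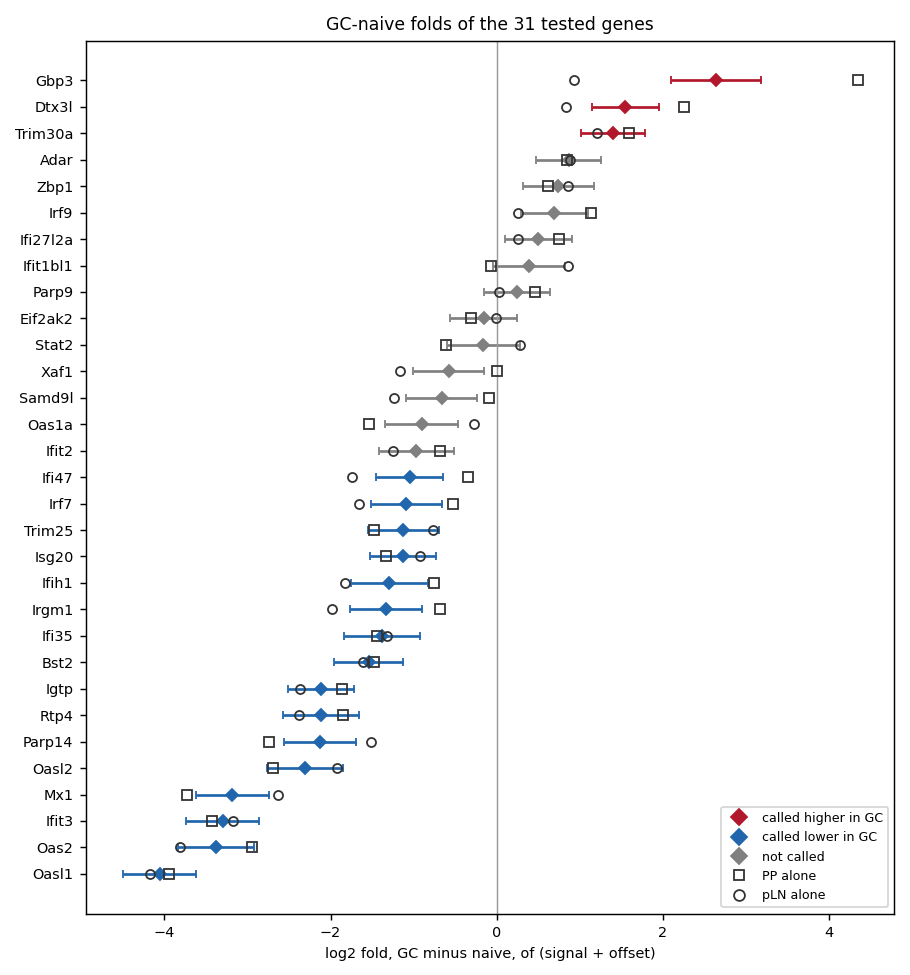
Log2 fold, GC minus naive, of the 31 tested members; diamonds with bars are the mean over the 2 tissues ± SE from limma, open squares PP alone and open circles pLN alone, 1 array against 1 in each. Oasl1, whose GC signals are not above background, is lowest at -4.06 and Gbp3 highest at 2.64; with scaling to the spike-ins the median of these genes turns positive (0.20).

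Within each tissue, where 1 array was set against 1 and no test was possible, 13 of 31 members were at least 2-fold lower in GC cells in PP and 4 (Irf9, Trim30a, Dtx3l and Gbp3) higher, against 29.5% and 30.1% of all genes. In pLN, 20 of 36 were lower and 1 (Trim30a) higher, against 25.1% and 19.6% of all genes. The genes that were 2-fold lower in pLN but not in PP included Irf7, Ifit2, Samd9l, Xaf1, Ifi47 and Irgm1, whose naive signals were all lower in PP than in pLN.

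Members with several probe sets were used to see whether the probe sets of a gene went together. Their positions on the transcript were not read, so the part of the 3' bias of the naive RNA was not tested. Over probe sets, 19 of 45 tested were called lower and 8 higher, against 21.4% and 32.4% of all 15690 probe sets. Of 10 members with several tested probe sets, 6 had all of them on the same side of 0 and 4 (Adar, Eif2ak2, Stat2 and Zbp1) had both signs. Both probe sets of Parp14 were called lower (-2.13 and -1.67), and 2 of 3 of Trim25 (-1.15 and -1.12, with the third at -0.71). Both of Dtx3l (1.55 and 2.90) and both of Trim30a (1.40 and 1.73) were called higher, although the dimmer probe set of Trim30a was not above background on either naive array.

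The probe sets of Eif2ak2 ranged from -0.16 to 2.50 and those of Stat2 from -0.16 to 2.04, the last with neither naive signal above background. The brightest probe set of Eif2ak2 read 743 and 976 in GC cells of PP and pLN against 923 and 979 in naive cells, while a second read 502 and 659 against 78.5 and 95.3. The second was called higher in GC cells (adjusted p = 5.03e-06), as was the third (1.37, adjusted p = 0.00871). The second probe set of Stat2 was called higher as well (adjusted p = 0.000174). By the mean of all its probe sets, Eif2ak2 was called higher (1.24, adjusted p = 0.00459), as was Stat2 (0.94, adjusted p = 0.0232). Of the 3 probe sets of Ifi35, only the brightest was called (-1.38), and the others differed by -0.45 and -0.28. Oasl1, Oas2, Oasl2, Ifit3, Mx1, Igtp and Bst2 had 1 probe set each, so no such check exists for them.

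**Figure D3:**
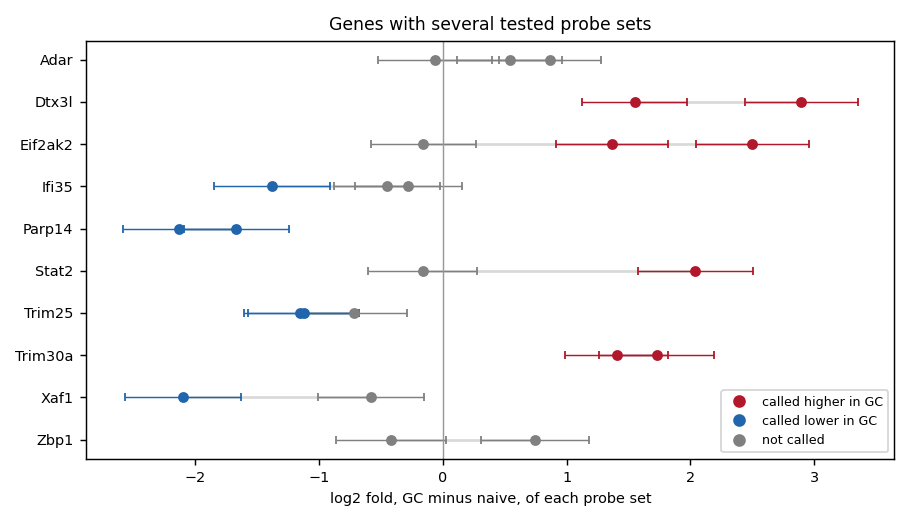
Log2 fold, GC minus naive, of each tested probe set (point ± SE from limma) for the 10 members with several. Dtx3l and Trim30a lie wholly above 0 and Parp14, Trim25, Ifi35 and Xaf1 wholly below it, while Eif2ak2 and Stat2 each span more than 2 log2 units.

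The second comparison set PP against pLN within each cell type. Tissue and immunisation cannot be told apart, 1 array stands against 1 and nothing was tested. The members were lower in PP than in pLN in both cell types, by any amount, for 27 of 31 genes above the level on an array of each cell type, against 32.5% of all genes, and 0 were higher in both, against 22.1%. Among the 22 members above the level on all 4 arrays, 21 were lower in PP in GC cells, 19 in naive cells and 18 in both, against 52.5%, 54.9% and 31.3% of all such genes. The exceptions were Irgm1 in GC cells and Stat2, Trim25 and Parp14 in naive cells. At least 2-fold lower in PP in both cell types were 9 of 31 members, against 0.512% of all genes, and 0 were higher, against 0.405%. By probe sets, 39 of 43 were lower in PP in both cell types, against 34.6% of all probe sets. Because the members were chosen with earlier results of these data known, these shares describe the list and are no independent support.

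In GC cells the 3'/5' ratios and spike-in signals of the 2 arrays were close (1.67 against 1.48 for Gapdh, 4925 against 4855 for the spike-ins). Some cell markers moved with the comparison. Of 6 naive B cell markers, 3 (Fcer2a, Cd55 and Klf2) were at least 2-fold lower in PP, with a median log2 fold of -0.77 over the 6. All 3 T cell markers above the level on a GC array were at least 2-fold higher in PP, with summed signals of the T cell list of 1031 in PP against 486 in pLN. The granulocyte markers S100a8 and S100a9 read 16.0 and 1.22 in PP against 209 and 482 in pLN. The part of such cells in the GC values was not tested. Here 10 of 31 members were at least 2-fold lower in PP and 0 higher, while 1.58% of all genes were lower and 2.95% higher. The members' median log2 fold was -0.60, against -0.0064 for all genes. Ifit1bl1 read 263 in PP against 1415 in pLN, Oas1a read 237 against 806 and Xaf1 read 423 against 875. These 3 genes were above the level on both arrays and 5.38-fold, 3.41-fold and 2.07-fold lower in PP.

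Mx1 read 74.7 in GC cells of PP, not above background, against 473 in pLN, or at least 2.20-fold lower, and Usp18 read 101 against 382, or at least 1.78-fold lower. Ifit2 read 101 against 223, or at least 1.04-fold lower. Ifit3, Oasl2, Oas3 and Rtp4 completed the 10, but their pLN signals, between 163 and 200, were under the level of the PP array, so no size can be given. With signals under the level set to it, 4 members (Ifit1bl1, Oas1a, Mx1 and Xaf1) were 2-fold lower in PP, against 1.06% of all genes.

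Among the immunity-related GTPases, which interferon gamma induces strongly, Igtp read 490 in GC cells of PP against 670 in pLN, Ifi47 read 1623 against 1740 and Irgm1 read 446 against 403, differences of -0.44, -0.10 and 0.14 on the log2 scale. All 6 of these signals were above background. In naive cells the same genes were lower in PP, by log2 differences of -0.95 for Igtp, -1.50 for Ifi47 and -1.15 for Irgm1. The guanylate-binding genes Gbp2 and Gbp3 differed by -0.71 and -0.33 in GC cells, with the PP signal of Gbp2 not above background.

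In naive cells 20 of 36 members were at least 2-fold lower in PP and 0 higher, against 15.5% and 8.74% of all genes, and the same count of 20 held with signals under the level set to it, against 11.9%. The members' median log2 fold was -1.17, against -0.13 for all genes. Xaf1, a pro-apoptotic partner of XIAP, read 422 in PP against 1982 in pLN, or 4.70-fold lower, Irf7 read 527 against 2272, or 4.32-fold lower, and Rtp4 read 226 against 928, or 4.12-fold lower. Rsad2 read 72.3, not above background, against 712 and was at least 4.92-fold lower. Gbp3 (31.2 against 647) and Gbp2 (99.6 against 589) were at least 4.47-fold and 4.07-fold lower by the same kind of bound.

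The naive arrays differed in 3'/5' ratio (96.4 in PP against 18.7 in pLN for Gapdh). They also differed in markers of plasmacytoid dendritic cells, the main producers of type I interferon, which carry Bst2 themselves. Of 6 such markers 3 were above the level on naive PP and 5 on naive pLN, with summed signals of 1491 against 2546. Siglech read 23.7 against 235, Ccr9 read 55.5 against 449, Cox6a2 read 196 against 487 and Pacsin1 read 341 against 648. Klk1 went the other way, with 787 against 674, as did Clec4a2, with 88.1 against 53.7, neither above background. On the GC arrays 1 of 6 was above the level on each, with sums of 936 in PP and 1247 in pLN, and Siglech and Ccr9 were not above it on either. Bst2 itself differed by -0.37 in naive cells. Markers of other cells moved as well. Of 4 macrophage and monocyte markers compared, 2 (Adgre1 and Cd68) were at least 2-fold lower in PP and 1 (Csf1r) higher. Lower too were 1 of 3 T cell markers (Cd4) and the 1 NK cell marker compared (Klrd1), but 0 of 2 of conventional dendritic cells. Markers of the gut epithelium were mostly higher in PP, with 5 of 6 above the level on naive PP and 1 of 6 on naive pLN. The part of these cells and of RNA quality in the naive values was not tested.

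**Figure D4:**
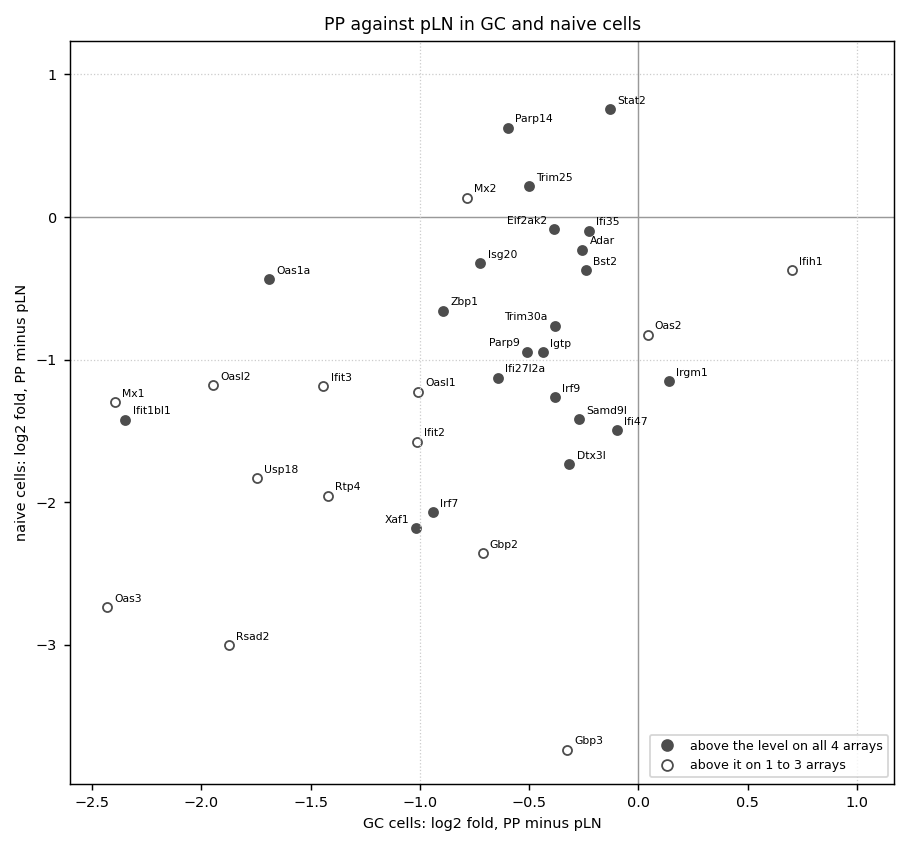
Log2 fold, PP minus pLN, in GC cells (x axis) and naive cells (y axis) for the 36 members above the level on at least 1 array; each value sets 1 array against 1, filled points are above the level on all 4 arrays, and dotted lines mark 2-fold. Most points lie in the lower left, where both folds are negative.

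Genes of the pathway outside the list were read in the same fit, in which 26.5% of all genes were called lower and 25.3% higher. The 6 interferon ligand genes found (Ifna1, Ifna2, Ifna4, Ifnab, Ifnb1 and Ifng) were not above the level on any array. Of 6 receptor chains, Ifnar2 of the type I receptor was called lower in GC cells (-1.55 ± 0.45, adjusted p = 0.00534, limma), Ifngr1 of the gamma receptor higher (2.81 ± 0.49, adjusted p = 3.49e-05, with the naive PP signal not above background), and 3 were not called. Ifnlr1 of the lambda receptor was also called higher (adjusted p = 0.0203), with 323 and 221 in GC cells of PP and pLN against 118 and 84.9 in naive cells, neither of the naive signals above background. Ifnar2 passed the filter through the naive arrays only, and Ifngr1 and Ifnlr1 through the GC arrays only, so their directions are partly set by it. Of 8 tested JAK-STAT genes, 5 were lower and 0 higher. These included the kinase gene Jak1 (-2.21 ± 0.42), the feedback inhibitor Socs3 (-3.56 ± 0.39), the phosphatase gene Ptpn6 (-2.04 ± 0.54) and Pias1 (-1.12 ± 0.38), and the highest adjusted p of the 4 was 0.0164. Of 6 other IRF genes none was called by limma, with 2 (Irf3 and Irf8) under an unadjusted p of 0.05.

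Of 12 tested genes of nucleic acid sensing, 4 were lower, 1 higher and 7 not called, shares to be read against the 26.5% and 25.3% of all genes. Tlr7, a receptor for single-stranded RNA, read 113 and 135 in GC cells of PP and pLN, neither above the level, against 1211 and 1666 in naive cells (adjusted p = 6.74e-07, limma). It entered the test through the naive arrays only, so its direction is partly set by the filter and its adjusted p uses GC background signals. Ddx58, which encodes RIG-I (-2.56 ± 0.43), Sting1 (-1.82 ± 0.40) and Ikbke (-1.75 ± 0.42) were lower, and the kinase gene Tbk1 was higher (1.12 ± 0.39, adjusted p = 0.0181).

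A further list of 60 interferon-induced genes had 48 on the array. Of the 35 tested, 17 were lower in GC cells, 5 higher and 13 not called, against 26.5% lower and 25.3% higher among all genes. Their median log2 fold was -0.88, against -0.13 for all genes tested. Gbp6 read 63.4 and 54.9 in GC cells of PP and pLN, not above background, against 980 and 984 in naive cells (adjusted p = 2.26e-07, limma). Pml, the organiser of nuclear bodies, was lower by a log2 fold of -3.44 ± 0.40 (adjusted p = 1.16e-07), and Tdrd7, not above background in GC cells, was also called lower (adjusted p = 1.38e-05). Plscr1 was higher (3.20 ± 0.48, adjusted p = 4.23e-06). Gbp6 and Tdrd7 passed the filter through the naive arrays only and Plscr1 through the GC arrays only, so their directions are partly set by it. The adjusted p of Gbp6 and of Tdrd7 uses GC background signals. Between tissues, 4 of 34 of these genes (Cmpk2, Lgals9, Epsti1 and Ms4a4c) were at least 2-fold lower in PP in GC cells and 1 higher, against 1.58% and 2.95% of all genes. In naive cells 8 of 38 were lower and 2 higher, against 15.5% and 8.74%. Their median differences of -0.24 in GC cells and -0.28 in naive cells stand beside -0.60 and -1.17 for the members, and the difference between the lists was not tested.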

How the data were processed

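The deposited values are microarray intensities on a linear scale, in which each array has a median of 1; GCOS, Affymetrix's array software, is named in the submitters' processing notes, and the sources used here give no version, algorithm or scaling target for it. Biotinylated cRNA was made from TRIzol-extracted RNA, per the labels' protocols. Signals were rescaled so that the mean after trimming 2% at each end was 500 on every array. The background was 81 probe sets of 45 genes of other tissues, whose median (18.7) was added before log2; the fold of a dim gene is therefore understated. Probe sets with 1 gene symbol (34958 of 45101, with 932 holding several and 9211 not listed) were used, each gene by its probe set of highest mean log2 signal. All 37 Entrez identifiers of the members matched RefSeq, and 0 symbols changed. The GC-naive contrast was fitted in limma 3.58.1 (R 4.3.3) with tissue as a term and an intensity trend; 1 residual degree of freedom was moderated by a prior of 27.4. The fit was tested on simulated data. Other comparisons set 1 array against 1 and have no test. Ratios written as "-fold" are of signals, over geometric means of the 2 tissues where cell types are compared; "at least" sets a signal not above background to the level. The number of arrays, 1 for each group, limits the precision. The members, lists, rule for named genes (every member, and up to 4 called genes of each other list by fold) and promoter windows shown were chosen with earlier results of these data known. Tbk1, Irf3, Irf8, the 4 further genes lower in PP, and the single marker genes lie outside that rule and were named after their values were seen. Alternatives covered scaling, offset, filter, detection level, background list, probe set choice, fold, tissue term, trend and each array left out (without the tissue term, since 3 arrays leave no residual degree of freedom with it). 0 columns were left unused.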

Additional observations from a re-analysis of the deposited data

Results flagged for a closer look

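In 3 tested members the GC-naive log2 fold pointed in opposite directions in the 2 tissues; each value sets 1 array against 1, and the difference was not tested. For Stat2 it was -0.60 in PP and 0.28 in pLN, a difference of -0.89. For Ifit1bl1, the IFIT paralogue, it was -0.072 in PP and 0.85 in pLN, a difference of -0.93. For Xaf1 it was 0.0044 in PP and -1.16 in pLN, a difference of 1.17, and its second probe set was lower in GC cells in both tissues (-2.52 in PP and -1.67 in pLN), with neither GC signal above background.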

How the results depend on the processing

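With 1 array for each group, the GC-naive test rests on how far the 2 tissues disagree, pooled largely over all genes, and the detection level (highest on GC PP) limits what can be sized there. The 16 members lower and 3 higher in GC cells, the 19 and 8 probe sets and the median of -1.05 were recomputed. Scaling to the spike-ins gave 2 members lower, 2 probe sets lower and a median of 0.20, and testing only genes above the level on all 4 arrays gave 9 members lower, 10 probe sets lower, 2 probe sets higher and a median of -0.62. The mean of all probe sets gave 5 members higher, and omitting the tissue term gave 1 member and 5 probe sets higher. With each array left out, in fits that also lack the tissue term, members lower ranged between 5 and 21, members higher between 1 and 6, probe sets lower between 3 and 30, probe sets higher between 2 and 13 and the median between -1.47 and -0.49. For PP against pLN, GC members lower numbered 6 with an offset of 100, 4 with dim signals at the level and 16 at 1.5-fold, against 10. In naive cells 32 were lower with spike-in scaling, against 20, and the median of the 31 members tested between cell types was -2.08, against -1.13. That scaling lowers every naive PP signal against naive pLN (spike-in signals of 17090 and 8569), so the rise is not particular to the members. In naive cells 1 was higher with cyclic loess and 2 at 1.5-fold, against 0. Shares of all genes for the offset, 1.5-fold, spike-in and cyclic loess settings are not given here. Spike-in scaling moved all genes (median 1.15, against -0.13), so the direction of a fold depends on the scale used, and which scale is right was not tested. Its sign changes fell on Eif2ak2 (1.12), Ifi47 (0.25), Ifit2 (0.20), Irf7 (0.17), Isg20 (0.15), Oas1a (0.36), Samd9l (0.64), Stat2 (1.10), Trim25 (0.18) and Xaf1 (0.68). Signs also changed with the mean of all probe sets for Eif2ak2 (1.24) and Stat2 (0.94), with quantile normalization for Ifit1bl1 (-0.12) and Parp9 (-0.072), with cyclic loess for Ifit1bl1 (-0.10) and with the probe set brightest on naive arrays for Zbp1 (-0.42). Left-out arrays gave ranges across 0 for Eif2ak2 (-0.35 to 0.037), Ifi27l2a (-0.061 to 1.07), Ifit1bl1 (-0.78 to 1.57), Parp9 (-0.23 to 0.71), Samd9l (-1.37 to 0.046), Stat2 (-0.54 to 0.22) and Xaf1 (-1.67 to 0.51). The leave-outs change the samples and the tissue term together, and the cause of the other changes was not tested.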
